A study of Mus musculus with 8 samples.

Results

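The genes described here encode 37 lysosomal hydrolases, partner proteins of these enzymes and lysosomal membrane proteins, taken by gene symbol from the 54752 genes counted in the right cerebral cortex of mice with and without a lasting reduction of the blood supply to the brain. They comprise 12 proteases, 7 glycosidases, 5 lipid hydrolases and their soluble partners, 10 membrane proteins, and 3 further genes (Grn, Creg1 and Tfeb). Most of them were far more abundant in the hypoperfused cortex. Of the 37 genes, 32 were higher at an adjusted p under 0.05 and none was lower, and the increases ran from 1.27-fold for the cathepsin gene Ctsf to 28.4-fold for Cd68. Neu1 and Mcoln1 stayed within the range of the sham mice or close to it.

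Lysosomes are acidic organelles in which proteins, glycans, lipids and nucleic acids taken up by a cell, or delivered from its own cytoplasm, are broken down. The hydrolases work at low pH, which a proton pump in the lysosomal membrane (the V-ATPase) maintains, while heavily glycosylated membrane proteins line the inner face of that membrane and transporters carry the products out. Microglia, the resident phagocytes of the brain, and infiltrating macrophages are rich in lysosomes, neurons depend on them as well, and inherited loss of many of the enzymes below causes storage diseases of the nervous system.

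The 4 BCAS mice had undergone bilateral carotid artery stenosis, in which a microcoil is placed around each common carotid artery (inner diameter 0.16 mm on the right and 0.18 mm on the left), and the 4 sham mice had the operation without coils. All were male wild-type C57BL/6J mice, 14 weeks old at sampling, and the right cortex, on the side of the narrower coil, was sampled 3 weeks after the operation, each library coming from 1 mouse. No sample tests the left cortex, another time or a single cell type. Libraries held 16759364 to 21794435 counts, and levels are given as CPM, counts per 1000000 counts after trimmed-mean scaling of the library sizes. The cortical neuron gene Slc17a7 was present in every library, at 1545 to 1687 CPM in sham mice and 485 to 1315 CPM in BCAS mice. The choroid plexus gene Ttr stood at 696 CPM in sham mouse 3, against 7.72 to 34.2 CPM in the other sham mice. The number of lysosomal genes that passed both thresholds was 27 with that mouse and 27 without it, though these need not be the same genes.

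A gene was called at an adjusted p under 0.05 (edgeR quasi-likelihood test, Benjamini-Hochberg adjustment over 17136 tested genes), and called at both thresholds where its log2 fold change also exceeded 1. Of the 37 genes, 36 could be tested, 32 were called higher at the adjusted p alone and 27 at both thresholds. None was lower, and the count lower at an unadjusted p under 0.05 was also 0 with edgeR, DESeq2 and limma. Among all tested genes, 19.2% were called higher at the adjusted p alone, 11.0% were called higher at both thresholds, and 12.8% were called lower. The median log2 fold change of the 36 tested lysosomal genes was 2.03, against -0.006 over all tested genes. Without BCAS mouse 1 the number called at both thresholds fell to 23, since Tpp1 (log2 fold change 0.94), Manba (0.95), Lamp1 (0.96) and Tfeb (0.86) then missed the fold threshold. In bulk tissue, a larger number of cells that carry lysosomes and more lysosomal RNA per cell cannot be told apart.

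**Figure D1:**
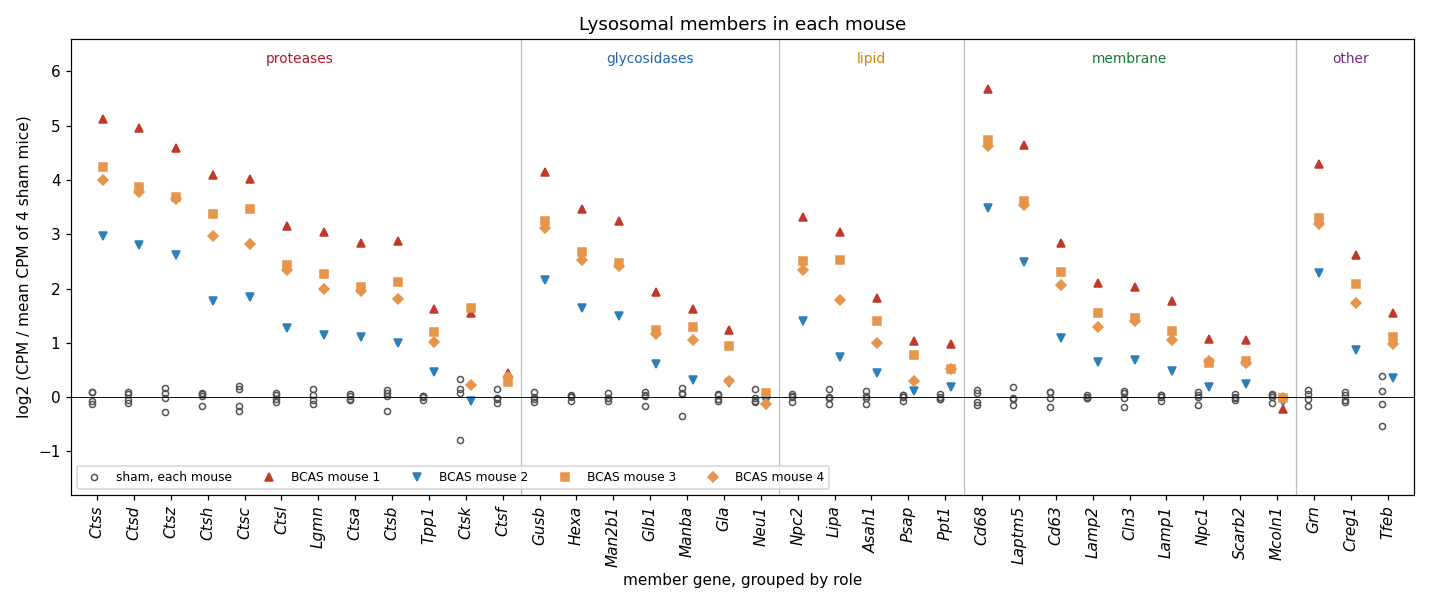
Level of each tested lysosomal gene in each mouse, as the log2 ratio of its CPM to the mean CPM of the 4 sham mice (vertical axis), with genes grouped by role along the horizontal axis. Open circles are sham mice and filled symbols the 4 BCAS mice, whose points lie above all sham mice for most genes, with mouse 1 usually highest and mouse 2 usually lowest, whereas for Neu1 and Mcoln1 the groups overlap.

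All 4 BCAS mice lay above all 4 sham mice for 33 of the 37 genes, against 18.5% of all tested genes. The exceptions were Ctsk, Neu1, Mcoln1 and Tfeb. Among the 33 was Atp6v0d2, which was not tested and whose groups were barely apart, with 4 counts in BCAS mouse 2 against 3 in sham mouse 1. BCAS mouse 1 was the highest and mouse 2 the lowest of the BCAS mice for 34 of the 37 genes, an order shared by 86.5% of the 1877 genes called higher at both thresholds. Together the 37 genes took 0.415% to 0.431% of all counts in sham mice. Their share was 2.82% in BCAS mouse 1, 0.846% in mouse 2, 1.65% in mouse 3 and 1.46% in mouse 4, so that even the least affected BCAS cortex held more than any sham cortex.

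Of the proteases, 11 of 12 were called higher at the adjusted p and 10 at both thresholds, with a median log2 fold change of 2.36. Cathepsin S (Ctss, ENSMUSG00000038642.10, chr3:95526786-95556403 on the + strand of mm10) is a cysteine protease of antigen-presenting cells that stays active at neutral pH. Its transcript stood at 51.9, 58.0, 49.8 and 58.7 CPM in sham mice 1 to 4, and at 1914, 430, 1026 and 871 CPM in BCAS mice 1 to 4. The groups were far apart, and the level rose 19.4-fold (log2 fold change 4.28 ± 0.42 SE, edgeR adjusted p = 0.00146).

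Ctsd (ENSMUSG00000007891.16, chr7:142375911-142388038, - strand) encodes the major aspartic protease of the lysosome, whose loss in mice and people causes a severe neuronal ceroid lipofuscinosis. It measured 191, 197, 170 and 177 CPM in sham mice and 5742, 1284, 2697 and 2506 CPM in BCAS mice. This was a 16.6-fold rise (log2 fold change 4.06 ± 0.43 SE, edgeR adjusted p = 0.00146) with no overlap between the groups. Among all genes ranked by counts, Ctsd moved from rank 1155 to 1345 in sham mice to rank 2, 42, 8 and 6 in BCAS mice 1 to 4. The gene Gm49369 on the same strand covers 34.4% of its exon bases, and read pairs falling on both were not counted, so that its absolute level is less sure than that of Ctss.

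Cathepsin Z (Ctsz), a carboxypeptidase of phagocytes, was at 40.1, 37.6, 29.6 and 35.2 CPM in sham mice and at 859, 217, 460 and 445 CPM in BCAS mice, 13.9-fold higher (log2 fold change 3.80 ± 0.38 SE, edgeR adjusted p = 0.00146). Ctsc, which activates the serine proteases of granulocytes and lymphocytes, and the aminopeptidase Ctsh were scarce in sham mice and rose 9.48-fold and 9.67-fold. Cathepsin L (Ctsl, 5.45-fold), asparaginyl endopeptidase (Lgmn, 4.82-fold), the protective protein of beta-galactosidase and neuraminidase (Ctsa, 4.31-fold) and cathepsin B (Ctsb, 4.30-fold) followed. Of these, Ctsl, Ctsa and Ctsb share 26.8%, 17.4% and 12.8% of their exon bases with other genes. Tpp1, a tripeptidyl peptidase that is lost in a childhood ceroid lipofuscinosis, rose 2.19-fold.

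Ctsf, the cathepsin with the smallest change, was at 47.1, 44.3, 46.8 and 52.8 CPM in sham mice and 65.0, 57.9, 57.9 and 61.4 CPM in BCAS mice. The groups did not overlap, but the rise was only 1.27-fold (edgeR adjusted p = 0.0162) and lost its call without sham mouse 1 (adjusted p = 0.0534) or sham mouse 2 (adjusted p = 0.0555). Cathepsin K (Ctsk), best known from bone-resorbing osteoclasts and also made by fibroblasts, was not called. It measured 5.57, 4.68, 2.57 and 4.95 CPM in sham mice and 13.1, 4.22, 13.9 and 5.18 CPM in BCAS mice (log2 fold change 1.04 ± 0.42 SE, edgeR adjusted p = 0.0863). Only BCAS mice 1 and 3 were well above the sham range, and these were also the mice with the most of the fibroblast transcript Col1a1, at 196 and 187 CPM against 26.2 CPM in mouse 2 and 73.4 CPM in mouse 4. The part of that difference in the Ctsk result was not tested. Ctsk passed with DESeq2 (adjusted p = 0.0431) and in edgeR without BCAS mouse 2 (adjusted p = 0.0163).

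**Figure D2:**
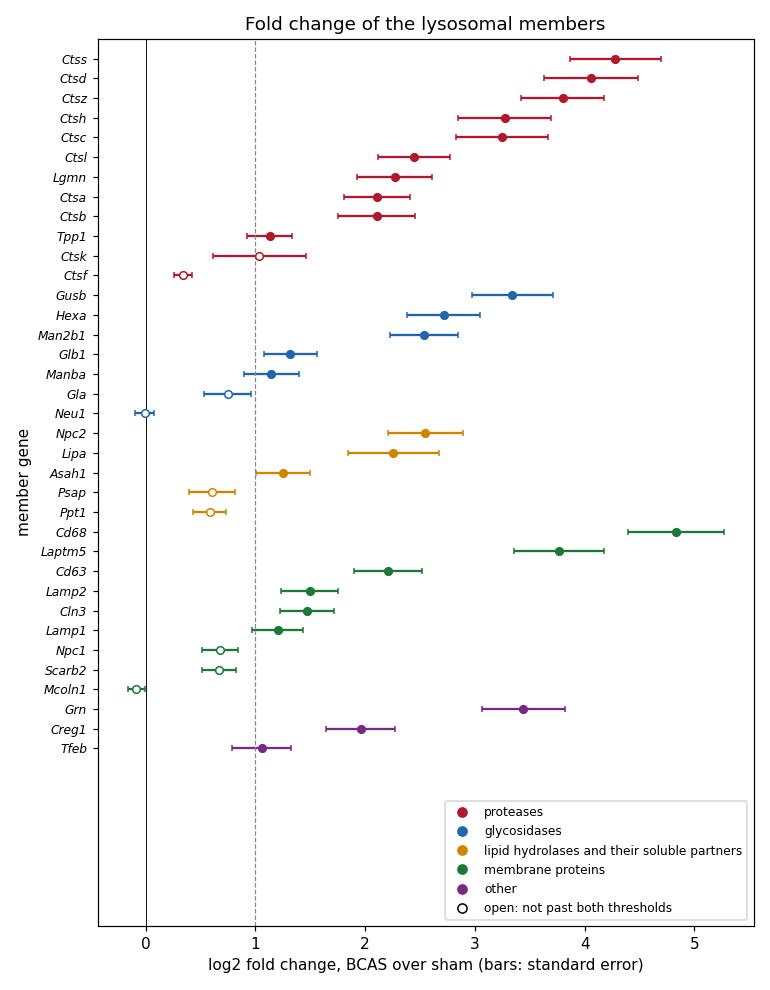
Log2 fold change of each tested lysosomal gene in BCAS over sham mice (horizontal axis, points) with its standard error (bars), from 4 mice per group, coloured by role. Filled points passed both thresholds and the dashed line marks a log2 fold change of 1; Cd68 (4.83), Ctss (4.28) and Ctsd (4.06) lie farthest to the right, and Neu1 and Mcoln1 at 0.

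Among the glycosidases, which cut sugars from glycoproteins, glycolipids and glycosaminoglycans, 6 of 7 were called at the adjusted p and 5 at both thresholds. Beta-glucuronidase (Gusb) was at 17.5, 16.0, 15.4 and 16.5 CPM in sham mice and 291, 73.1, 156 and 141 CPM in BCAS mice. It rose 10.1-fold (log2 fold change 3.34 ± 0.37 SE, edgeR adjusted p = 0.00163). Hexa, the alpha subunit of beta-hexosaminidase that is defective in Tay-Sachs disease, was at 51.1, 51.9, 51.9 and 48.3 CPM in sham mice and 562, 158, 323 and 291 CPM in BCAS mice, a rise of 6.56-fold. Lysosomal alpha-mannosidase (Man2b1) was at 48.3, 49.9, 50.2 and 53.3 CPM in sham mice and 477, 143, 281 and 270 CPM in BCAS mice, a rise of 5.81-fold. In all 3 the lowest BCAS mouse was well above the highest sham mouse.

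The remaining glycosidases had smaller fold changes. Beta-galactosidase (Glb1) rose 2.49-fold and beta-mannosidase (Manba) 2.21-fold, both with separate groups. Alpha-galactosidase A (Gla), the enzyme of Fabry disease, rose 1.68-fold (edgeR adjusted p = 0.0297), and its call was lost without any single sham mouse or without BCAS mouse 3 (adjusted p between 0.0664 and 0.078), and also with limma-voom (0.0506) and with the replicate number as a block (0.0598). Neuraminidase 1 (Neu1, ENSMUSG00000007038.5, chr17:34931253-34935953, + strand), which removes sialic acid and works in a complex with the products of Ctsa and Glb1, had no detectable change, unlike these partners. It measured 65.0, 57.5, 55.7 and 54.9 CPM in sham mice and 61.1, 55.4, 61.7 and 53.5 CPM in BCAS mice. The groups overlapped throughout, with a log2 fold change of -0.009 ± 0.09 SE (edgeR adjusted p = 0.942).

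Of the lipid hydrolases and their soluble partners, 4 of 5 were called at the adjusted p and 3 at both thresholds. Npc2, the soluble protein that hands cholesterol to the membrane protein NPC1, was at 51.7, 57.0, 54.9 and 55.3 CPM in sham mice and 547, 144, 310 and 279 CPM in BCAS mice. It rose 5.84-fold (log2 fold change 2.55 ± 0.34 SE, edgeR adjusted p = 0.00249). Lysosomal acid lipase (Lipa), which frees cholesterol from its esters, was at 17.2, 18.7, 18.6 and 20.8 CPM in sham mice and 155, 31.5, 109 and 64.6 CPM in BCAS mice. This was a rise of 4.78-fold, and BCAS mouse 2 came closest to the sham mice. Acid ceramidase (Asah1) was at 53.2, 59.0, 57.1 and 62.3 CPM in sham mice and 204, 78.6, 153 and 115 CPM in BCAS mice, 2.38-fold higher.

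Palmitoyl-protein thioesterase (Ppt1), the enzyme of infantile ceroid lipofuscinosis, was at 106, 98.5, 102 and 99.5 CPM in sham mice and 199, 116, 146 and 146 CPM in BCAS mice. It rose 1.5-fold (edgeR adjusted p = 0.02), and the adjusted p was 0.0528, 0.0593 and 0.058 without sham mice 1, 2 and 4. Prosaposin (Psap), the precursor of the saposins that present sphingolipids to their hydrolases, was the most abundant of these transcripts in sham cortex. It measured 1682, 1684, 1635 and 1562 CPM in sham mice and 3350, 1781, 2827 and 2023 CPM in BCAS mice. The groups did not overlap, but with BCAS mouse 2 close to the sham mice the difference missed the threshold (log2 fold change 0.61 ± 0.21 SE, edgeR adjusted p = 0.0511). It passed without BCAS mouse 2 (adjusted p = 0.00637), with DESeq2 (0.0105), with library size alone (0.033) and with at least 10 counts required in every library (0.0488).

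The membrane proteins spanned the widest range. Cd68 (ENSMUSG00000018774.13, chr11:69664213-69666153, - strand), a heavily glycosylated protein of the LAMP family found in the endosomes and lysosomes of macrophages and microglia, was at 6.14, 7.43, 7.15 and 6.34 CPM in sham mice. In BCAS mice it was at 346, 75.4, 181 and 166 CPM. The rise of 28.4-fold (log2 fold change 4.83 ± 0.44 SE, edgeR adjusted p = 0.00146) was the largest of the 36 tested genes, and even BCAS mouse 2 was 11.1-fold above the sham mean. Laptm5, a lysosomal transmembrane protein of blood-derived cells and microglia, was at 39.3, 45.1, 36.0 and 38.9 CPM in sham mice and 1001, 223, 487 and 461 CPM in BCAS mice, 13.6-fold higher. Cd63, a tetraspanin of late endosomes and lysosomes in most cell types, was at 38.1, 41.3, 41.0 and 33.9 CPM in sham mice and 277, 81.5, 191 and 162 CPM in BCAS mice, 4.61-fold higher.

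The structural proteins that coat most lysosomes had smaller fold changes. Lamp2 rose 2.81-fold and Lamp1 2.30-fold, the latter from 376, 374, 346 and 366 CPM to 1243, 507, 852 and 759 CPM. Cln3, whose loss causes juvenile ceroid lipofuscinosis, rose 2.77-fold. The receptor that carries beta-glucocerebrosidase to lysosomes (Scarb2) rose 1.59-fold, and the cholesterol exporter Npc1 rose 1.6-fold, a call that was lost without sham mouse 1 (adjusted p = 0.0541) or sham mouse 4 (adjusted p = 0.0502). The calcium channel gene Mcoln1 (ENSMUSG00000004567.16, chr8:3500457-3515232, + strand), which encodes mucolipin 1, was at 67.4, 60.5, 67.8 and 65.6 CPM in sham mice and 55.9, 61.4, 64.4 and 64.3 CPM in BCAS mice. Its groups overlapped, with a log2 fold change of -0.09 ± 0.08 SE (edgeR adjusted p = 0.398).

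Atp6v0d2, which encodes the d2 subunit of the V-ATPase in osteoclasts and some macrophages, did not pass the filter on low counts, since only BCAS mice 1, 3 and 4 held 10 counts or more and mouse 2 held 4. It had 3 counts in sham mouse 1 and 0 in the other 3, and stood at 34.9 CPM in BCAS mouse 1, 0.21 CPM in mouse 2, 31.0 CPM in mouse 3 and 3.60 CPM in mouse 4. The summed counts were 3 in sham and 1436 in BCAS mice, a depth-adjusted ratio of 436 with a 95% counting interval of 149 to 2120, which covers counting error only. When the filter was dropped, its fitted log2 fold change was 8.40 (edgeR adjusted p = 0.00292), a value that depends on how counts near 0 are handled. BCAS mouse 2 was thus near the sham level while mice 1 and 3 carried most of the signal. The monocyte transcripts Ccr2 and Ly6c2 had the same order, at 40.5 and 20.4 CPM in BCAS mouse 1, 24.1 and 10.9 CPM in mouse 3, 6.70 and 2.02 CPM in mouse 4 and 2.01 and 0.72 CPM in mouse 2. Such an order is not particular to monocyte transcripts. Mouse 1 was the highest and mouse 2 the lowest for 86.5% of all genes called higher at both thresholds. The part of Ccr2 and Ly6c2 in the Atp6v0d2 result was not tested.

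The remaining 3 genes were all called at both thresholds. Progranulin (Grn), a secreted and lysosomal glycoprotein whose loss causes frontotemporal dementia or ceroid lipofuscinosis, was at 53.5, 59.7, 48.9 and 56.5 CPM in sham mice and 1072, 268, 536 and 501 CPM in BCAS mice. It rose 10.9-fold (log2 fold change 3.44 ± 0.38 SE, edgeR adjusted p = 0.0016) with wide separation of the groups. Creg1, a small lysosomal glycoprotein, was at 31.2, 32.1, 29.2 and 28.3 CPM in sham mice and 186, 54.9, 128 and 100.1 CPM in BCAS mice, 3.88-fold higher. Tfeb, a transcription factor that activates lysosomal genes, was at 11.8, 9.86, 6.24 and 8.33 CPM in sham mice and 26.5, 11.6, 19.5 and 17.8 CPM in BCAS mice. It rose 2.08-fold (edgeR adjusted p = 0.0201), with BCAS mouse 2 just below sham mouse 1, and the call failed when sham mouse 2 (adjusted p = 0.0512), sham mouse 4 (0.0593) or BCAS mouse 3 (0.0507) was left out.

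TFEB and its relatives TFE3 and MITF bind a palindrome that is common near the start sites of lysosomal genes. Its core, CACGTG, and the longer form TCACGTGA were searched on RefSeq promoters (assembly GRCm38.p6), from 250 bases before to 50 bases after each start site, and since both are palindromes each match reads the same on either strand. A promoter was found for 32 of the 37 genes. A further motif, GAGGAAGT, the kind bound by the myeloid factor PU.1, was added after values were seen and was searched on both strands. CACGTG occurred in 10 of the 32 (31.2%), against 8.09% of 27025 genes, and TCACGTGA, which contains it, in 5 of the 32 (15.6%), against 1.12%. The other lysosomal genes described below were close to these shares, with CACGTG in 18 of the 74 that had a promoter (24.3%) and TCACGTGA in 10 (13.5%). The TCACGTGA windows of 4 of these 5 genes and the cluster of 4 CACGTG matches in Lamp1 are printed 5′ to 3′ on the strand of the gene, with the match in capitals, because they set genes with large, moderate and no change side by side:
Ctsd (chr7:142387909-142387936, - strand): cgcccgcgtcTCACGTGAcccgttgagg
Ctsa (chr2:164833750-164833772, + strand): gagcaaactgTCACGTGAtgcag
Cln3 (chr7:126583341-126583368, - strand): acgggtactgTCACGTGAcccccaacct
Lamp1 (chr8:13159090-13159160, + strand): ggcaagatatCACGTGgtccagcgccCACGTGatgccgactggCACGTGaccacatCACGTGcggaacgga
Mcoln1 (chr8:3500463-3500490, + strand): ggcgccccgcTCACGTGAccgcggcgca

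The printed matches begin 99 bases before the start site in Ctsd, 13 in Ctsa, 122 in Cln3, 46 in Mcoln1, and 61, 45, 28 and 15 in Lamp1. The genes with TCACGTGA covered nearly the whole range of responses, with log2 fold changes of 4.06 for Ctsd, 2.11 for Ctsa, 1.47 for Cln3, 0.75 for Gla and -0.09 for Mcoln1. The other genes with CACGTG were Lamp1, Ctsf, Ctsl, Glb1 and Lgmn. Cd68, Ctss, Ctsz, Laptm5, Grn and Gusb, which all rose at least 10.1-fold, had no CACGTG in their windows. Genes with little or no change lacked it as well, among them Neu1 (log2 fold change -0.009), Ppt1 (0.58), Psap (0.61) and Scarb2 (0.67). GAGGAAGT occurred in 4 of the 32 (12.5%: Ctsc, Ctss, Gla and Gusb), against 3.69% of all genes and 2.7% of the other lysosomal genes. Of the relatives of Tfeb, Tfe3 rose with a log2 fold change of 0.51 (edgeR adjusted p = 0.0241) and Mitf with 0.98 (edgeR adjusted p = 0.0256).

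**Figure D3:**
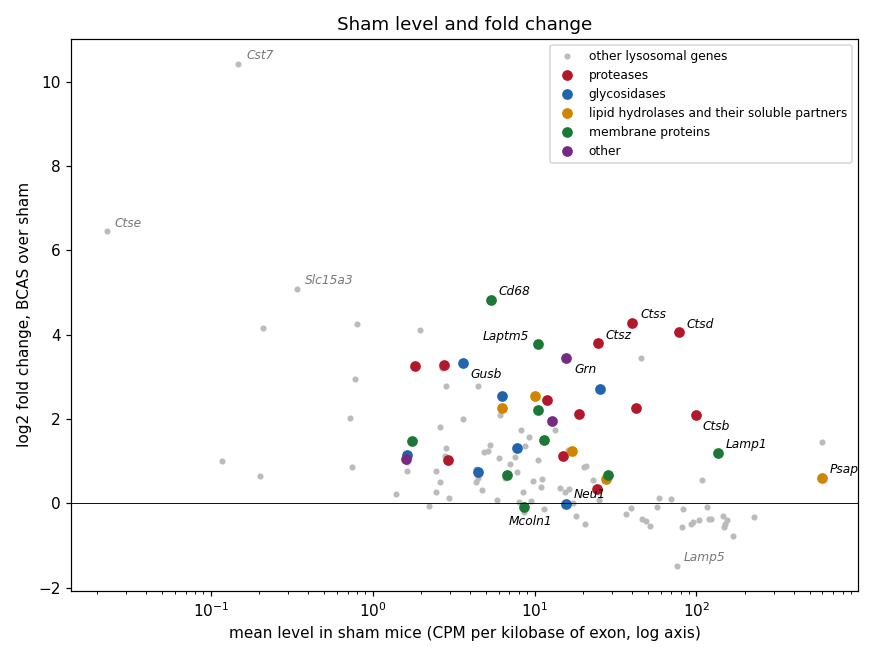
Mean level in sham mice per kilobase of exon (horizontal log axis) and log2 fold change in BCAS mice (vertical axis) for the 36 tested lysosomal genes, coloured by role, and for the other lysosomal genes tested (grey). Psap, the most abundant in sham mice, had a log2 fold change of 0.61, whereas Ctsd, Ctss and Cd68 combine large fold changes with sham levels from 5.38 to 78.1 CPM per kilobase.

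Expressed per kilobase of exon, the order of the genes changed between the groups. In sham mice Psap led with a mean of 598 CPM per kilobase, followed by Lamp1 with 137, Ctsb with 99.7 and Ctsd with 78.1. In BCAS mice Ctsd came to 1300 CPM per kilobase on average, ahead of Psap with 909, Ctss with 781, Ctsb with 428 and Ctsz with 344. On this scale Ctsd was above Psap in BCAS mouse 1 (2443 against 1221), mouse 3 (1147 against 1030.0) and mouse 4 (1066 against 737), and below it in mouse 2 (546 against 649). These values divide by all exon bases. Other genes cover 34.4% of those of Ctsd, 12.8% of those of Ctsb and 0.0% of those of Psap, and read pairs on both genes were not counted. The place of Ctsd below Psap in BCAS mouse 2 and below Ctsb in sham mice is therefore not sure. As a share of the raw counts of the 37 genes, with no correction for length, Psap held 36.3% to 39.1% in sham and 12.4% to 21.2% in BCAS mice, and Ctsd 4.06% to 4.37% and 15.3% to 21.2%.

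The rest of the lysosomal machinery was read from a list of 96 further genes. Of these, 91 were tested, and 50 were called higher and 13 lower at the adjusted p, against 19.2% and 12.8% of all tested genes. At both thresholds 29 were called higher, against 11.0% of all tested genes, and 1 lower. The share of all tested genes called lower at both thresholds was not determined. The total of 63 calls was less firm than those above, at 41 without sham mouse 1, 37 without sham mouse 2, 40 without sham mouse 4 and 75 without BCAS mouse 2. The 13 lower calls shrank to 1, that of Lamp5, when sham mouse 1, 2 or 4 or BCAS mouse 4 was left out. Cst7, which encodes cystatin F, an inhibitor of lysosomal cysteine cathepsins in immune cells, was at 0.23, 0.06, 0.11 and 0.18 CPM in sham mice and 383, 105, 160 and 199 CPM in BCAS mice (edgeR adjusted p = 0.000479), and its fitted log2 fold change of 10.42 rests on a handful of sham counts. Ctse, an aspartic protease of immune cells, was at 0.11, 0.06, 0.11 and 0 CPM in sham mice and 12.1, 2.47, 7.78 and 5.83 CPM in BCAS mice. The peptide transporter Slc15a3 was at 1.88, 1.5, 1.66 and 2.47 CPM in sham mice and 114, 23.5, 69.2 and 48.6 CPM in BCAS mice.

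At the other end, Lamp5, a LAMP family member of neurons, was at 300.4, 207, 147 and 229 CPM in sham mice and 47.9, 98.9, 103 and 66.4 CPM in BCAS mice. It was the only one of the 96 genes called lower at both thresholds (log2 fold change -1.48 ± 0.28 SE, edgeR adjusted p = 0.0074). The neuron markers Snap25 and Slc17a7 were lower in the same libraries, with log2 fold changes of -1.07 and -0.87, and their part in the Lamp5 result was not tested.

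The V-ATPase is the pump that acidifies the lysosome, and it is also dense on synaptic vesicles. Among 19 V-ATPase genes of the list of 96, 8 were called lower and 3 higher, against 12.8% and 19.2% of all tested genes, and 8 neither. Of the 19, 15 had a negative log2 fold change, and the median was -0.38. The neuron markers were lower in the same libraries, with 6 of 8 called lower and a median log2 fold change of -0.83. BCAS mouse 1 was the lowest and mouse 2 the highest of the BCAS mice for 7 of those 8 markers and for 13 of the 19 V-ATPase genes. The share of all lower genes with this order was not determined. Its mirror image held for 86.5% of the genes called higher at both thresholds. The part of the neuron markers in the V-ATPase result was not tested. In 12 of the 19 all 4 BCAS mice were below all 4 sham mice, against 16.3% of all tested genes. Atp6v1g2, a G subunit of brain, fell from 430, 423, 395 and 435 CPM to 144, 347, 258 and 240 CPM (log2 fold change -0.77 ± 0.22 SE, edgeR adjusted p = 0.0306). Atp6v1e1 fell from 349.8, 341, 305 and 344 CPM to 167, 271, 240.1 and 227 CPM (log2 fold change -0.57 ± 0.14 SE, edgeR adjusted p = 0.0196). Atp6v0d1, the widely expressed d subunit, was at 218, 241, 202 and 217 CPM in sham mice and 145, 193, 179 and 157 CPM in BCAS mice (log2 fold change -0.38 ± 0.11 SE, edgeR adjusted p = 0.0292).

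The lower calls of the V-ATPase depended on single mice and on the fit. Their number was 0 when sham mouse 1, 2 or 4 or BCAS mouse 4 was left out, 3 without sham mouse 3, 2 without BCAS mouse 3, and 10 and 12 without BCAS mouse 1 and 2. The number of subunits with a negative log2 fold change was 15 in each of these fits. With all mice, 5 subunits were called lower with library size alone (13 with a negative log2 fold change), 13 with DESeq2 and 3 with the replicate number as a block. Tcirg1, whose a3 subunit is typical of osteoclasts and macrophages, was at 13.9, 11.0, 11.7 and 13.9 CPM in sham mice and 146, 35.1, 92.5 and 77.3 CPM in BCAS mice, 6.93-fold higher (edgeR adjusted p = 0.00246). It was singled out after its values were seen, as were the other 2 subunits called higher, Atp6v0e (log2 fold change 1.08) and Atp6v0a2 (0.57).

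**Figure D4:**
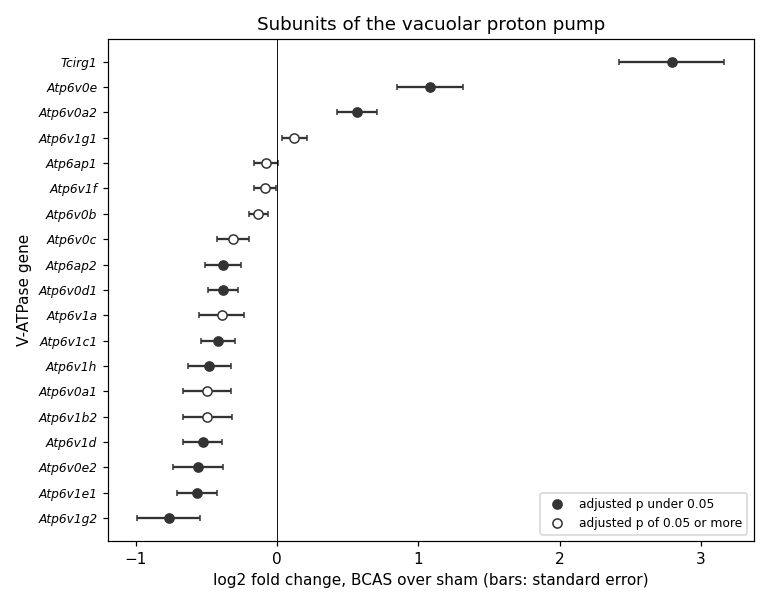
Log2 fold change in BCAS over sham mice (horizontal axis, points) with its standard error (bars) for the 19 V-ATPase genes, from 4 mice per group; filled points have an adjusted p under 0.05. Tcirg1, Atp6v0e and Atp6v0a2 lie to the right of 0 and 15 genes lie to the left of it.

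Markers of several cell types moved with the lysosomal genes. All 10 microglial markers were called higher at both thresholds, with log2 fold changes from 1.67 for Sall1 to 4.31 for C1qa, and their summed level was 316 to 384 CPM in sham mice and 1178 to 4310 CPM in BCAS mice. Of 9 markers of border macrophages and monocytes, 6 were called higher, from a sum of 17.3 to 22.2 CPM to a sum of 33.3 to 189.5 CPM. Of 5 neutrophil markers, Ly6g was at 0 in every library and Retnlg was at most 0.53 CPM. S100a8 was at most 3.73 CPM and S100a9 at most 5.29 CPM, both reached in BCAS mouse 3. Only Csf3r was abundant enough to be tested. It rose 16.8-fold (edgeR adjusted p = 0.00146), from 5.07 to 9.09 CPM in sham mice to 54.6 to 205 CPM in BCAS mice. Csf3r made up nearly all of the sum of this list, which was 5.43 to 9.66 CPM in sham mice and 55.2 to 212 CPM in BCAS mice. Of 7 lymphocyte markers, 2 were tested and both were called higher, with Cd8a at 0 to 0.19 CPM in sham and 0.72 to 12 CPM in BCAS mice, and their sum was 2.17 to 5.30 CPM in sham and 5.67 to 48.1 CPM in BCAS mice. All 4 fibroblast markers were called higher, from a sum of 47.7 to 66.6 CPM to a sum of 118 to 691 CPM. Of 7 astrocyte markers, 6 were called higher, led by Gfap (log2 fold change 3.90), whereas 6 of 8 neuron markers were called lower, from a sum of 8886 to 10360 CPM in sham mice to a sum of 3510 to 7551 CPM in BCAS mice. Among vessel markers, 2 of 5 endothelial genes, Pecam1 and Cdh5, and 1 of 3 pericyte and smooth muscle genes, Pdgfrb, were called higher (log2 fold changes 0.58, 0.87 and 1.00). Of 4 hemoglobin genes Hba-a1 and Hbb-bs were called higher (0.41 and 0.58), and of 2 striatal genes Adora2a was called higher (0.99), with BCAS mouse 4 highest at 53.2 CPM. No oligodendrocyte marker of 6 was called by edgeR, DESeq2 or limma, and at an unadjusted p under 0.05 the count was 0 with edgeR and limma and 2 with DESeq2. The part of these shifts in the lysosomal increases was not tested.

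**Figure D5:**
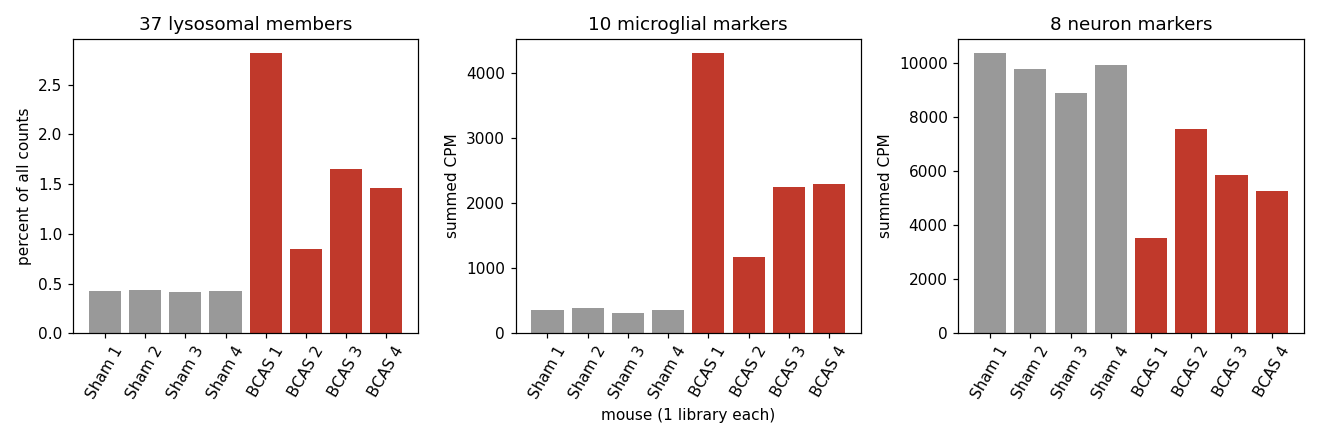
Share of all counts taken by the 37 lysosomal genes (left, percent), and summed CPM of 10 microglial markers (middle) and 8 neuron markers (right) in each mouse; each bar is 1 library, grey for sham and red for BCAS. The lysosomal share and the microglial sum are highest in BCAS mouse 1 and lowest among BCAS mice in mouse 2, and the neuron sum has the reverse order at its ends.

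Set beside the microglial markers, the lysosomal genes lay within their range and on both sides of it. Of the 36 tested genes, Cd68 exceeded the highest microglial marker, 18 fell between the lowest and the highest, and 17 were below the lowest. The count of Cd68 relative to that of the microglial receptor gene Csf1r, a reference chosen with the values known, was 0.058 to 0.0729 in sham mice and 0.219 to 0.286 in BCAS mice. For Ctsd the ratio was 1.66 to 1.80 in sham and 3.73 to 4.75 in BCAS mice, and for Ctss 0.489 to 0.572 and 1.25 to 1.58. For Lamp1, which most cells express, it was 3.15 to 3.56 in sham and 1.03 to 1.47 in BCAS mice. The groups did not overlap in these ratios. These 4 genes do not stand for the whole set, since 9 of the 36 tested genes had a larger log2 fold change than Csf1r and 27 a smaller one. The ratios also depended on the reference. Relative to C1qa, Ctsd was at 5.30 to 5.68 in sham and 4.14 to 4.90 in BCAS mice, Lamp1 at 10.1 to 11.7 and 1.06 to 1.92, and Ctss at 1.44 to 1.87 and 1.51 to 1.63 with overlapping groups. Only for Cd68 was the ratio to C1qa, among these 4 genes, higher in all BCAS mice (0.277 to 0.296) than in all sham mice (0.171 to 0.239).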

How the data were processed

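Right cortex of 4 sham and 4 BCAS mice was measured by RNA-seq, and samples were grouped by their titles. The authors trimmed paired reads, aligned them to mm10 with HISAT2 and deposited unnormalized counts of read pairs per gene from featureCounts (2.0.1 and GENCODE annotation per the file headers, 1.6.3 in the submitters' processing notes). Counting ignored strand and dropped pairs on more than 1 gene. Gene coordinates are those of the deposited tables. Of 54752 genes, 54723 matched a symbol. A count of 0 in a library allows up to 3 counts, 0.187 CPM in the smallest, that of sham mouse 2.

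Counts were tested with edgeR 4.0.16 (R 4.3.3) by the quasi-likelihood F-test with TMM factors, after filterByExpr (minimum count 10, minimum total 15), at an adjusted p of 0.05 and an absolute log2 fold change of 1. Standard errors were derived from the fold change and F-statistic. The alternatives were other scalings and filters, DESeq2 1.42.0, limma 3.58.1 (voom, and log2(CPM + 1)), thinned counts, a replicate block, and each mouse left out. The procedure was tested on simulated data. The members, roles, other lysosomal genes, markers and motifs were chosen with earlier results of these data known.

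All 37 genes are accounted for. Values per mouse are given for the 3 largest changes and the smallest in each role, negative changes, filtered genes, and, of the other lysosomal genes, the 3 at each end and Atp6v0d1. Others were chosen after their values were seen. Promoters are RefSeq windows. For 31 of 32 genes the transcribed end matched a transcript of the gene.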

Additional observations from a re-analysis of the deposited data

Results flagged for a closer look

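Among 158 groups of 4 mice examined (79 genes, each in sham and in BCAS mice, namely the 37 lysosomal genes and the other genes whose levels or fold changes are named), 6 held a mouse far from the rest by Dixon's criterion, where chance alone gives about 1 in 20. All 6 were in sham mice. Atp6v0d2 was at 0.171 CPM (3 counts) in sham mouse 1 and 0 in the other 3. The choroid plexus gene Ttr was at 696 CPM in sham mouse 3. Atp6v0e was at 21.0 CPM in sham mouse 2, against 19.2 to 19.4 CPM in the others. Sgsh was at 6.54 CPM in sham mouse 1, against 7.36 to 7.49 CPM in the others. In sham mouse 4, Hba-a1 was at 21.4 CPM, against 25.4 to 26.2 CPM in the others, and Hbb-bs at 29.99 CPM, against 41.1 to 43.1 CPM.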

How the results depend on the processing

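The number of lysosomal genes called at both thresholds, 27, was 26 to 28 under other scalings, filters, tests and thinned counts, and 23 to 29 with single mice left out. At the adjusted p alone, 32 became 28 to 35 with single mice left out. Of the 27, the same 23 genes passed in every setting, and of the 32, the same 27. For the other lysosomal genes the count at the adjusted p, 63, ranged from 37 to 75 with single mice left out. The 648 values of single genes over 18 settings gave 619 with the same direction and side of the threshold, 17 that lost and 6 that gained a call, and 6 that changed sign. Those 6 were Neu1 (log2 fold change 0.081 with library size alone, 0.009 with at least 10 counts in every library, 0.04 without sham mouse 1, 0.025 without BCAS mouse 2 and 0.027 without BCAS mouse 4, the range with single mice left out being -0.043 to 0.04) and Mcoln1 (0.001 with library size alone), neither called in any setting. The cause was not tested. The largest shift of the median of all genes by a scaling was to 0.08 on the log2 scale. Same-numbered mice did not deviate together (correlations of -0.045, -0.103, -0.008 and 0.001). The expression values thus gave no sign of pairing by number, which cannot exclude that the mice were handled in pairs. With the number as a replicate block the calls were 27 at both thresholds and 31 at the adjusted p, and 29 and 43 of the other lysosomal genes. The calls of Ctsf, Gla, Npc1, Ppt1 and Tfeb at the adjusted p were each lost when some single mouse was left out, and the cause was not tested.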

Other observations

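Other hydrolases outside the 37 genes rose as well. Of 21 further glycosidases, sulfatases and related enzymes, 17 were called higher at the adjusted p and 1 lower, against 19.2% and 12.8% of all tested genes, with a median log2 fold change of 0.82. Enzymes of heparan sulfate breakdown differed among themselves, with log2 fold changes of 2.79 for Naglu, 0.82 for Idua and 0.76 for Sgsh, all called higher, against -0.30 for Hgsnat, which was called lower, and -0.40 for Ids, which was not called (adjusted p = 0.114). Of the 3 cathepsin inhibitors on the list, all were called higher, and cystatin C (Cst3) was the most abundant, with a log2 fold change of 1.46.

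Of 9 genes that sort enzymes to the lysosome, 3 were called higher and 1 lower at the adjusted p, against 19.2% and 12.8% of all tested genes. The uncovering enzyme gene Nagpa passed both thresholds with a log2 fold change of 1.25, and the cation-dependent mannose 6-phosphate receptor gene M6pr rose with 0.55. The sorting receptor gene Sort1 was at 770.0, 731, 659 and 717 CPM in sham mice and 410.0, 650.0, 566 and 489 CPM in BCAS mice (log2 fold change -0.44, edgeR adjusted p = 0.0472). The lower calls of Hgsnat and Sort1 were each lost in fits that omitted sham mouse 1, sham mouse 2, sham mouse 4, BCAS mouse 3 or BCAS mouse 4, that of Sort1 also without sham mouse 3 and that of Hgsnat also without BCAS mouse 1. These genes were chosen after their values were seen.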
